A study of Macaca mulatta with 51 samples.

Results

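The chemokine and chemokine receptor genes were all genes of the count table whose symbol was CCL, CXCL, CCR or CXCR followed by a number, together with CX3CL1, CX3CR1, XCL1, XCR1 and the numbered ACKR genes. This name rule used no measured value and found 56 of the 16033 genes. Gene expression was measured by RNA sequencing in subcutaneous adipose tissue (AT) and gastrocnemius skeletal muscle (SM) of 10 rhesus macaques. All had diet-induced obesity (DIO) without diabetes, which came from 2 years or more of high-fat feeding. Males and ovariectomized females were equally represented (5 each), and ages spanned 11 to 22 years. Biopsies were taken pre-treatment, post-treatment after 12 weeks of daily subcutaneous injections of native human FGF21 at rising doses (1 animal was kept at a lower final dose), and at washout 16 weeks after the last injections. Each animal served as its own control and no untreated group ran alongside, so the effects of treatment and of time cannot be told apart. FGF21 is a metabolic hormone that lowers body weight in obese animals, and the comparisons addressed how AT and SM responded to it and to its withdrawal.

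Chemokines are small secreted proteins that guide leukocytes by binding receptors that couple to G proteins on the surface of the migrating cell. Inflammatory chemokines are induced at sites of injury and recruit neutrophils, monocytes or effector T cells, homeostatic chemokines such as CXCL12 or CCL19 position cells in healthy tissue, and atypical receptors (ACKR) bind chemokines without G protein signaling and remove them. In obese adipose tissue, ligands such as CCL2 are known for recruiting monocytes that become tissue macrophages.

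Counts were used from 27 AT libraries (10 pre-treatment, 9 post-treatment, 8 washout) and 21 SM libraries (6, 8 and 7 from 8 animals), with 14455195 to 23940980 counts per library. Adipocyte markers summed to 14400 to 48700 CPM (counts per 1000000 counts of a library) in AT libraries and to 68.5 to 1610 CPM in SM libraries, and skeletal muscle markers to 46.2 to 162 CPM in AT and 46000 to 223000 CPM in SM, so each library matched its labelled tissue. All CPM values were scaled by the trimmed mean of M values (TMM) within a tissue unless stated otherwise. The family genes CCL3, CCL14, CXCL8, CX3CL1, CXCL16 and XCL1 were not analysed here. A gene was tested in a tissue when it reached 0.5 CPM in at least 10% of the libraries, which 47 of the 56 members did in AT and 28 in SM. The 9 not tested in AT were CXCL5, CCR8, CCL16, XCR1, CCL1, CCL20, CXCL17, CCR9 and CXCL13. Of these, CXCL5 had 0 counts in every AT library. The members together made up 870 to 2108 CPM in AT and 122 to 783 CPM in SM, here relative to the unscaled library total.

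Differential expression (DE) was called by edgeR's quasi-likelihood test with animal in the model, at a Benjamini-Hochberg adjusted p below 0.05 over all genes of the tissue and a log2 change above 0.26 or below -0.26. The share of all genes DE was kept for this main model only. Counts of DE members under other scaling, methods or sets of libraries therefore stand without it. In biopsies of whole tissue, fewer cells of a type and less RNA per cell cannot be told apart. Some members are uncertain because reads can be shared. CXCL1, CXCL2 and CXCL3 are close paralogs, as are CXCR1 and CXCR2, and CCL4 has near-identical copies. In the RefSeq table used for names, ACKR4, CCL19, CCL21, CCL27, CCR10, CXCR5 and CXCR6 overlap another gene, and whether counting used strand was not given in the sources used here.

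In AT after treatment, 8 of the 47 tested members were DE, 4 higher and 4 lower. The homeostatic ligand CXCL12, its receptor CXCR4, and the ligands CCL15 and CCL24 were higher, whereas the neutrophil-recruiting ligand CXCL1, its receptor CXCR2, the monocyte-recruiting ligand CCL13 and CXCL14 were lower. The 8 genes were 17.0% of the members tested, against 15.5% of all 13367 genes tested in AT (6.98% higher and 8.49% lower), so members were called at close to the share of genes in general. The 28 ligands divided evenly, with 14 higher and a median log2 change of -0.01. Of the 19 receptors, 16 were higher, and the median over all 19 was 0.46. The 2 DE receptors were CXCR4, higher, and CXCR2, lower. Over all 47 the median log2 fold change was 0.23, against 0.03 for all genes tested. With library size in place of TMM the calls were 4 higher and 2 lower.

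**Figure D1:**
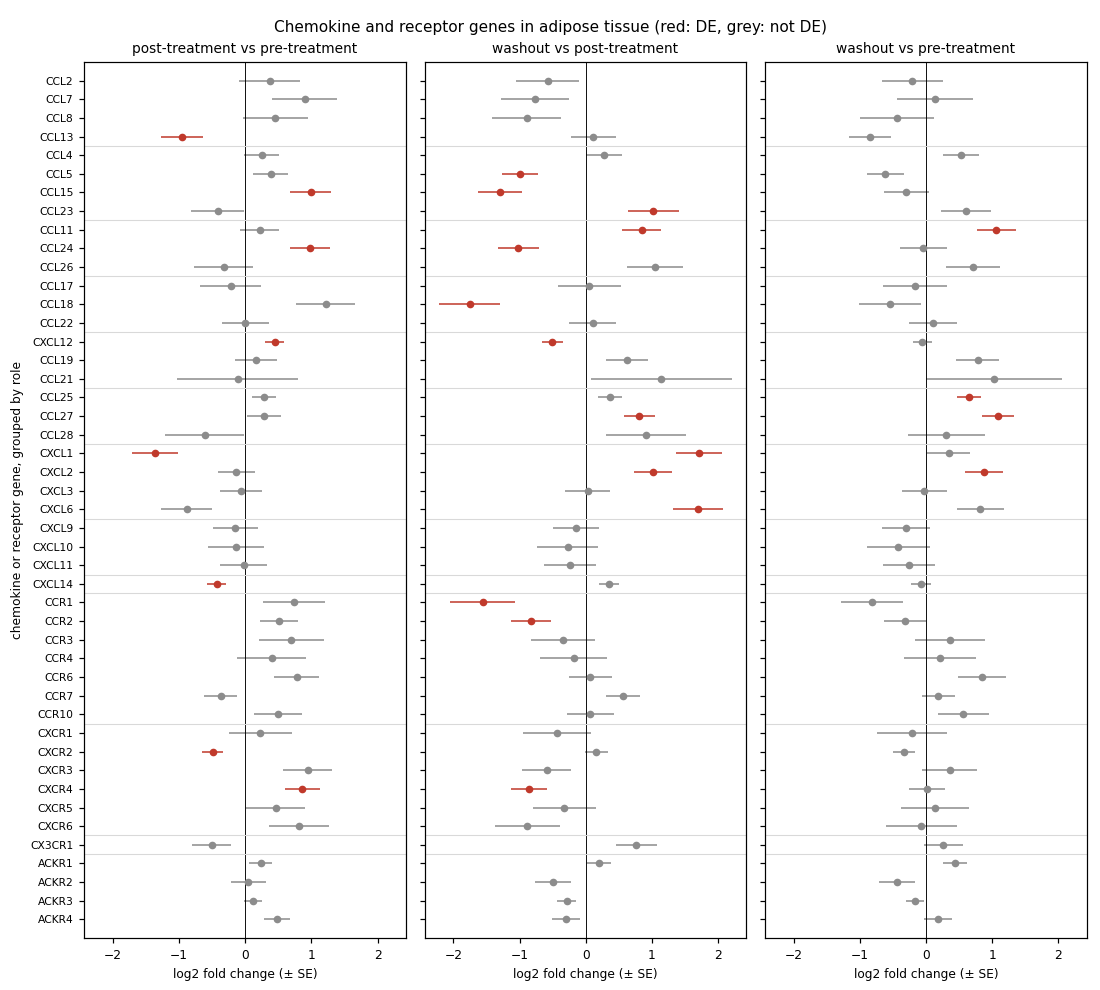
Log2 fold change (x axis, with its standard error as a bar) of 46 of the 47 members tested in AT, 1 gene per line, grouped by role, for post-treatment against pre-treatment, washout against post-treatment and washout against pre-treatment. Red points are DE (8, 14 and 4 genes) and grey points are not, and points of CXCL1, CXCL12, CXCR4, CCL15 and CCL24 are red in the first and second panels on opposite sides of 0.

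CXCL1 (ENSG00000163739), which attracts neutrophils through CXCR2, had the smallest adjusted p of the members post-treatment. Its level in AT ranged from 0.972 to 27.5 CPM before treatment with a median of 4.58, from 0.662 to 9.05 CPM post-treatment with a median of 1.31, and from 1.1 to 25.5 CPM at washout with a median of 9.23. Most post-treatment libraries were low, the ranges overlapped, and animal 20275 had the highest post-treatment level. The post-treatment change was -1.37 on the log2 scale (SE 0.34, 0.388-fold, adjusted p = 0.0154), and the level was higher post-treatment in 1 of 9 animals. CXCL1 was the member that remained DE in each of 10 fits that left out 1 animal, with adjusted p from 0.00271 to 0.0422. Animal 19832 had an AT library only before treatment, so the fit without it dropped no pair.

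The other ligands of CXCR2 that were tested, CXCL2, CXCL3 and CXCL6, also had fold changes below 0 post-treatment, so that 0 of 4 were higher and 1 of 4 was DE. CXCL6 ranged from 0.057 to 4.48 CPM (median 1.03) before treatment and from 0.0994 to 2.38 CPM (median 0.415) post-treatment, with a log2 change of -0.88 (SE 0.39, adjusted p = 0.111), and the groups overlapped widely. CXCL2 had medians of 4.91 and 4.97 CPM and a log2 change of -0.14 (SE 0.28, adjusted p = 0.775). Their receptor CXCR2 (ENSG00000180871), carried mainly by neutrophils, ranged from 4.75 to 8.92 CPM (median 6.49) before treatment, from 2.87 to 8.83 CPM (median 4.71) post-treatment and from 2.53 to 7.68 CPM (median 4.81) at washout. In 5 of 9 post-treatment libraries CXCR2 lay below every pre-treatment library, and animal 26292 was the exception at the top of the range. The change was -0.49 on the log2 scale (SE 0.16, adjusted p = 0.0422), higher in 1 of 9 animals. Neutrophil markers summed to 4.53 to 25.6 CPM before and 3.4 to 41.0 CPM after treatment, with 0 of 5 DE, 3 of 5 higher and 0 of 5 at 0 in all libraries, and their part in the result was not tested.

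CXCL12 (ENSG00000107562), made by stromal cells, ranged from 155 to 439 CPM (median 315) before treatment, from 210 to 847 CPM (median 396) post-treatment and from 144 to 468 CPM (median 309) at washout. In 4 of 9 post-treatment libraries it exceeded every pre-treatment library, and animal 21866 was highest at each time point. The log2 fold change was 0.45 (SE 0.14, 1.36-fold, adjusted p = 0.0412), with 8 of 9 animals higher. CXCR4 (ENSG00000121966), the signaling receptor of CXCL12 on leukocytes, ranged from 7.73 to 41.2 CPM (median 25.4) before treatment, from 15.8 to 99.9 CPM (median 47.3) post-treatment and from 13.9 to 45.3 CPM (median 25.9) at washout. In 5 of 9 post-treatment libraries CXCR4 was above all pre-treatment libraries, while animal 23004 was the low one. Its log2 fold change was 0.86 (SE 0.26, 1.82-fold, adjusted p = 0.0318), with 8 of 9 animals higher. ACKR3, the atypical receptor that removes CXCL12, had medians of 272, 314 and 210 CPM at the 3 time points and was not DE in AT (post-treatment log2 fold change 0.12, SE 0.13, adjusted p = 0.554).

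CCL15 (ENSG00000275718), a ligand of CCR1, ranged from 2.0 to 14.4 CPM (median 3.38) before treatment, from 2.48 to 21.8 CPM (median 9.38) post-treatment and from 1.65 to 5.5 CPM (median 3.38) at washout. The post-treatment levels spread over both the low and the high end of the scale, and 2 of 9 libraries exceeded all those before treatment. Its log2 fold change was 0.99 (SE 0.31, 1.99-fold, adjusted p = 0.0372), with 7 of 9 animals higher. CCL24 (ENSG00000106178), an eotaxin that binds CCR3 on eosinophils, rested on 0 to 38 counts per library. It ranged from 0.0553 to 1.21 CPM (median 0.343) before treatment, from 0 to 1.91 CPM (median 0.518) post-treatment and from 0 to 1.06 CPM (median 0.256) at washout. Post-treatment libraries lay both above and below all pre-treatment libraries, 2 in each direction. The log2 fold change was 0.97 (SE 0.30, adjusted p = 0.0327), with 6 of 9 animals higher.

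Among the ligands of CCR2, which bring monocytes into tissue, CCL13 (ENSG00000181374) was the DE member. It ranged from 4.2 to 47.0 CPM (median 15.6) before treatment, from 1.24 to 29.4 CPM (median 6.88) post-treatment and from 2.91 to 13.8 CPM (median 7.19) at washout. The upper end of the range was lower at each later time point, although the groups overlapped. Its post-treatment log2 fold change was -0.96 (SE 0.32, 0.515-fold, adjusted p = 0.0454), with 2 of 9 animals higher. CCL2, the best known ligand of the group, was not DE: its medians were 31.4, 42.3 and 25.7 CPM and its post-treatment log2 fold change was 0.37 (SE 0.46, adjusted p = 0.607). CCL2 was higher in 3 of 9 animals, with changes within animals from -1.76 in animal 20456 to 3.43 in animal 22130. CXCL14 (ENSG00000145824), a ligand made constitutively in epithelia and adipose tissue, ranged from 155 to 402 CPM (median 255) before treatment and from 96.6 to 404 CPM (median 156) post-treatment. In 4 of 9 post-treatment libraries it lay below every pre-treatment library, and in animal 21866 it lay above them all. Its log2 fold change was -0.43 (SE 0.14, adjusted p = 0.0457), with 1 of 9 animals higher, and at washout the range was 134 to 329 CPM (median 230).

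**Figure D2:**
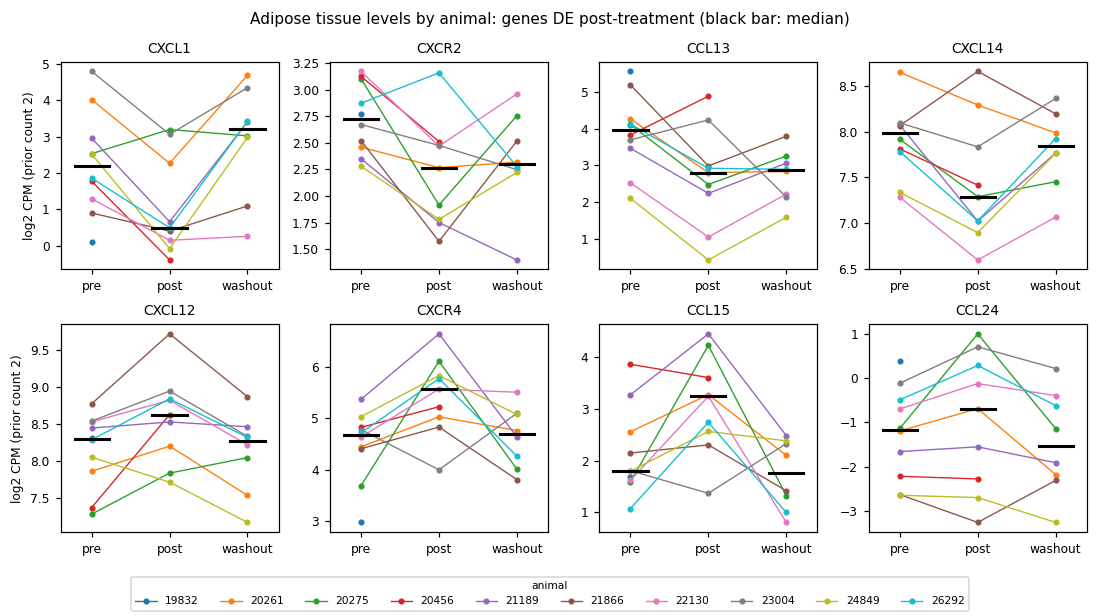
Level in AT (log2 CPM, prior count 2) of the 8 members DE post-treatment, 1 panel per gene, with 1 line per animal over the 3 time points and a black bar at the median. CXCL1, CXCR2 and CXCL14 were higher post-treatment in 1 of 9 animals each and CXCL12 and CXCR4 in 8 of 9, and in every panel the ranges of the time points overlap.

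The remaining members of each role were not DE post-treatment. The 3 ligands of CXCR3 that interferon induces, CXCL9, CXCL10 and CXCL11, had fold changes below 0, and CXCL10 had medians of 6.05 and 5.58 CPM with a log2 change of -0.15 (SE 0.42, adjusted p = 0.843). CXCR3 itself, the receptor of these ligands on effector T cells, was at 0.0514 to 0.703 CPM (median 0.478) before and 0.496 to 1.83 CPM (median 0.696) after treatment, a log2 change of 0.95 (SE 0.37, adjusted p = 0.0818, 8 of 9 animals higher). CCL18, which alternatively activated macrophages secrete, had a log2 change of 1.21 (SE 0.45), above that of each DE member that rose, with an adjusted p of 0.0682. Its median was 10.1 CPM before and 30.3 CPM after treatment, and the animals differed from -1.19 in animal 20456 to 3.45 in animal 20275. CCL5, which attracts T cells, had a log2 change of 0.38 (SE 0.26, adjusted p = 0.314). Of the 8 CC receptors tested, 7 had fold changes above 0 and 0 were DE, with adjusted p of 0.219 for CCR2 and 0.303 for CCR7, the latter with a log2 change of -0.37. CX3CR1, the receptor of the membrane-bound ligand CX3CL1 on monocytes, had medians of 2.51 and 1.35 CPM and a log2 change of -0.51 (SE 0.30, adjusted p = 0.234). All 4 atypical receptors had fold changes above 0 and 0 were DE.

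Markers of macrophages, T cells, adipocytes and red cells included genes that changed in the same comparison. All 11 macrophage markers tested had fold changes above 0 post-treatment and 3 were DE (C1QA, C1QB and C1QC). Their median log2 fold change was 0.74, and their summed level ranged from 681 to 2600 CPM (median 1430) before treatment, from 1010 to 6030 CPM (median 2890) post-treatment and from 424 to 2490 CPM (median 722) at washout. T cell markers summed to 70.4 to 199 CPM (median 123) before treatment, 107 to 397 CPM (median 213) post-treatment and 45.8 to 162 CPM (median 71.9) at washout, with 7 of 7 above 0 and 1 of 7 DE post-treatment. Adipocyte markers went the other way, with 5 of 5 below 0, 3 DE and a median of -0.62, and 6 of 7 markers of progenitors and fibroblasts were higher, 1 of them DE. Of the 10 immediate early genes, which respond to handling of a biopsy, 10 had fold changes above 0 and 1 was DE. Of the markers of NK cells (6 tested), B cells (4), dendritic cells (3), endothelium (5) and skeletal muscle (7), 0 were DE post-treatment. Erythroid genes had 3 of 3 tested below 0, 1 DE and a median of -1.66, with summed levels of 327 to 10600 CPM (median 2680) before and 454 to 7640 CPM (median 851) after treatment. None of the macrophage or T cell markers was at 0 in all AT libraries, and the part of these markers in the chemokine results was not tested.

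The post-treatment changes differed between animals. Of all genes tested in AT, 49.0% to 53.0% were higher post-treatment in each animal with both libraries. In animal 20275, 63.8% of the 47 members were higher post-treatment with a median change of 0.66 on the log2 scale, and the macrophage markers had a median change of 2.47. Animal 22130 had 72.3% of members higher, a median change of 0.83 and a macrophage change of 1.71. At the other end, animal 20456 had 31.9% higher, a median change of -0.52 and a macrophage change of -0.34. Members and macrophage markers did not run together in every animal. Animal 24849 had 11 of 11 macrophage markers higher (median 0.89) with 40.4% of members higher, animal 21189 had 11 of 11 higher (1.11) with 53.2% of members, and animal 21866 had 0 of 11 higher (-0.43) with 53.2% of members. The number of DE members changed with the animals included. It was 1 (CXCL1) when animal 20275, 21189 or 22130 or the pre-treatment library of 20275 was left out. It was 2 without 20261 or 26292, 3 without 21866, 4 without 24849 and 5 without 23004. The share of all genes DE in these fits was not kept, so the counts cannot be set against genes in general. Over the 10 fits, CCL24 was DE in 5, CCL15 in 4, CXCR2, CCL13 and CXCR4 in 3, and CXCL12 and CXCL14 in 2, with adjusted p up to 0.157. These include the fit without animal 19832, which dropped no pair of libraries.

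**Figure D3:**
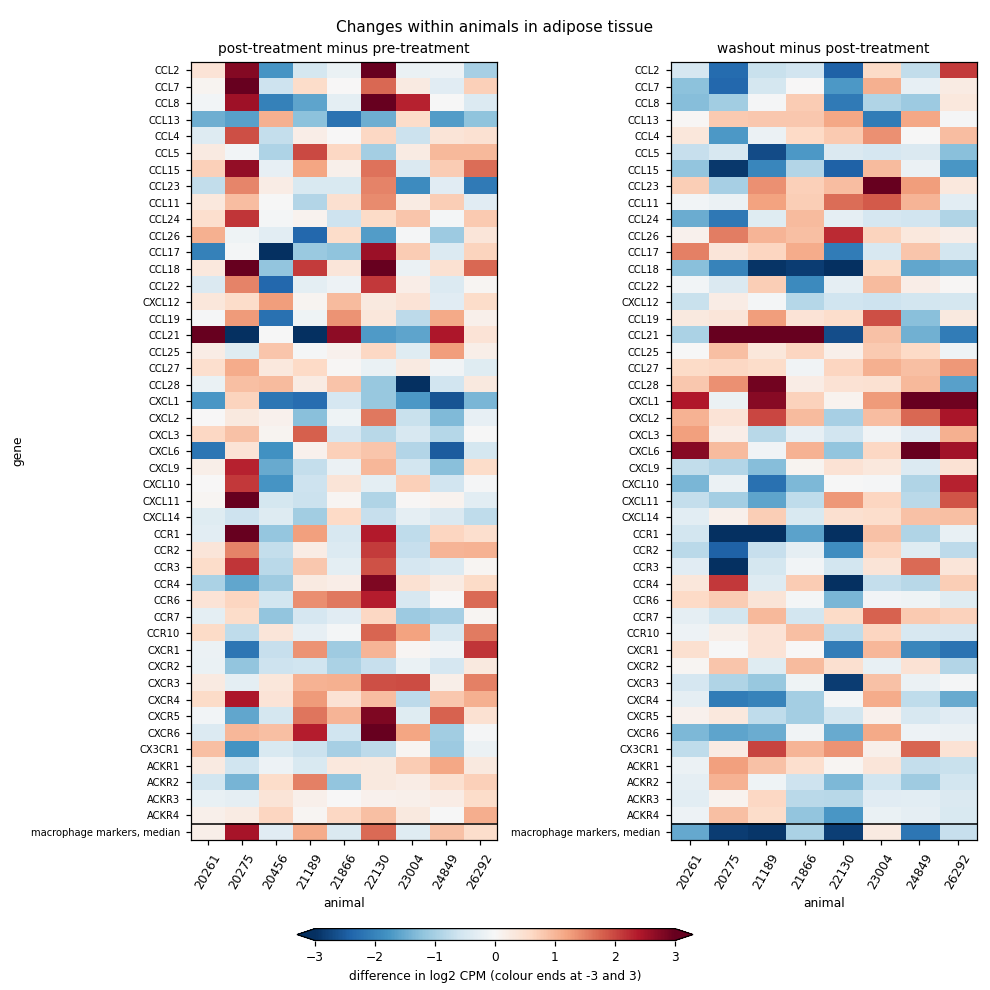
Difference in log2 CPM within each animal (columns) for 46 of the 47 members tested in AT (lines, by role), post-treatment minus pre-treatment for 9 animals and washout minus post-treatment for 8, with the median of the 11 macrophage markers in the bottom line and colours that end at -3 and 3. Post-treatment the columns of 20275 and 22130 are mostly red, with macrophage medians of 2.47 and 1.71, and at washout the macrophage line is blue in all animals but 23004.

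The library identifiers fall into 3 number series, and whether these are batches of RNA isolation or sequencing was not given in the sources used here. In the 6 animals with both AT libraries in the last series, each of the 8 DE genes had a mean change of the same sign as in the whole set. CXCR4 and CCL15 were higher in 6 of 6 of them, with mean log2 changes of 1.09 and 1.19. CCL13 was higher in 0 of 6 (-1.57), and CXCL1, CXCR2 and CXCL14 in 1 of 6 (-1.31, -0.52 and -0.44). CXCL12 was higher in 5 of 6 (0.36) and CCL24 in 4 of 6 (0.48). With the series as a covariate over all animals, 6 of the 8 remained DE, while CCL15 (0.87, adjusted p = 0.0632) and CXCL14 (-0.43, adjusted p = 0.0525) did not.

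From the end of treatment to washout, 14 of the 47 members were DE in AT, 6 higher and 8 lower. The neutrophil-recruiting ligands CXCL1, CXCL2 and CXCL6 rose together with CCL11, CCL23 and CCL27, whereas CXCL12, CXCR4, CCL15, CCL24, CCL5, CCL18 and the receptors CCR1 and CCR2 fell. The 14 genes were 29.8% of members, against 35.4% of all genes tested (17.6% higher and 17.8% lower). The median of the members was -0.15 on the log2 scale, against -0.002 for all genes, with 17 of 28 ligands above 0 and 6 of 19 receptors above 0. With library size in place of TMM, 9 members were higher and 7 lower. CXCL1, CXCL12, CXCR4, CCL15 and CCL24 were DE in both this comparison and the one before it, with opposite signs. As both use the same post-treatment libraries, the values are given side by side and not tested against each other.

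All 4 ligands of CXCR2 had fold changes above 0 at washout and 3 were DE. CXCL1 had a log2 change of 1.71 (SE 0.35, 3.27-fold, adjusted p = 0.00112) and was higher at washout in 7 of 8 animals. CXCL6 (ENSG00000124875) ranged from 0.11 to 6.34 CPM (median 2.38) at washout against a post-treatment median of 0.415, a log2 change of 1.70 (SE 0.38, 3.25-fold, adjusted p = 0.00188) with 6 of 8 animals higher. The washout libraries of CXCL6 spread widely, with 4 of 8 above all post-treatment libraries and animal 22130 the lowest. CXCL2 (ENSG00000081041) ranged from 2.71 to 10.7 CPM (median 4.97) post-treatment and from 5.32 to 18.1 CPM (median 10.6) at washout, with 4 of 8 washout libraries above all post-treatment ones. Its log2 fold change was 1.01 (SE 0.29, adjusted p = 0.0106), with 7 of 8 animals higher. CXCR2 itself had a log2 change of 0.16 (SE 0.17, adjusted p = 0.476). Neutrophil markers summed to 3.0 to 17.5 CPM at washout, with 1 of 5 above 0 and 0 DE, and their part in the result was not tested.

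Among the genes of the CCR1 axis, CCL5, CCL15 and CCR1 fell and CCL23 rose. CCL5 (ENSG00000274233), which binds CCR1 and is made by T cells and NK cells, ranged from 5.68 to 97.4 CPM (median 21.0) post-treatment and from 4.17 to 16.9 CPM (median 14.1) at washout. The high values of the post-treatment group were absent at washout, and the level was lower in each animal with both libraries. The level fell to 0.5-fold (SE 0.27 on the log2 scale, adjusted p = 0.00841) with 0 of 8 animals higher. CCL15 had a log2 change of -1.29 (SE 0.33, 0.408-fold, adjusted p = 0.00552), with 3 of 8 washout libraries below all post-treatment ones and 1 of 8 animals higher. CCR1 and CCL23 were named after their values were seen. CCR1, a receptor on monocytes and macrophages, had medians of 82.8, 119 and 53.8 CPM at the 3 time points. Its highest value was 526 CPM in the post-treatment library of animal 20275, against 233 CPM in the next. The washout change of CCR1 was -1.56 (SE 0.50, adjusted p = 0.0196). CCL23, another CCR1 ligand at 0.0496 to 2.16 CPM, rose by 1.02 (SE 0.39, adjusted p = 0.0464).

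CCL18 (ENSG00000278006) ranged from 5.12 to 59.3 CPM (median 30.3) post-treatment and from 0.775 to 34.4 CPM (median 8.85) at washout. In 3 of 8 washout libraries it lay below every post-treatment library, and animal 23004 was highest at washout. The log2 fold change was -1.76 (SE 0.46, 0.296-fold, adjusted p = 0.00627), with 1 of 8 animals higher. CCR2, the receptor that monocytes follow into tissue, ranged from 1.17 to 3.42 CPM (median 1.81) post-treatment and from 0.55 to 2.02 CPM (median 1.05) at washout. In 5 of 8 washout libraries CCR2 was below all post-treatment ones, with animal 23004 highest, and the log2 fold change was -0.83 (SE 0.31, adjusted p = 0.0412). Of the 4 ligands of CCR2, 1 had a fold change above 0 and 0 were DE. The log2 fold change was -0.57 (SE 0.47, adjusted p = 0.356) for CCL2 and 0.11 (SE 0.34, adjusted p = 0.813) for CCL13.

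CXCL12 fell by 0.50 on the log2 scale (SE 0.15, adjusted p = 0.0140) and CXCR4 fell by 0.85 (SE 0.27, adjusted p = 0.0202), each with 1 of 8 animals higher. Their washout medians, 309 and 25.9 CPM, lay beside the pre-treatment medians of 315 and 25.4 CPM. Of the 3 eotaxins tested, CCL24 fell by 1.02 (SE 0.31, adjusted p = 0.0125), while CCL11 rose by 0.85 (SE 0.29, adjusted p = 0.0284), with 5 of 8 animals higher. The third, CCL26, had a log2 change of 1.04 and was not DE. CCL11 was at 1.24 to 6.42 CPM (median 2.49) post-treatment and at 1.4 to 5.23 CPM (median 3.99) at washout, a range that lies within the earlier one. CCL27 (ENSG00000213927), a skin-homing ligand of CCR10, rested on 3 to 18 counts per library. It ranged from 0.249 to 0.585 CPM (median 0.397) post-treatment and from 0.485 to 0.952 CPM (median 0.736) at washout. In 5 of 8 washout libraries CCL27 exceeded all post-treatment ones, and the log2 fold change was 0.81 (SE 0.23, adjusted p = 0.0106) with 7 of 8 animals higher. IL11RA, which overlaps CCL27 in RefSeq, averaged 58.3, 50.1 and 53.9 CPM at the 3 time points and was not DE in any AT comparison. Its level was far above that of CCL27, so a few shared reads would not show in it. The part of such reads was not tested.

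**Figure D4:**
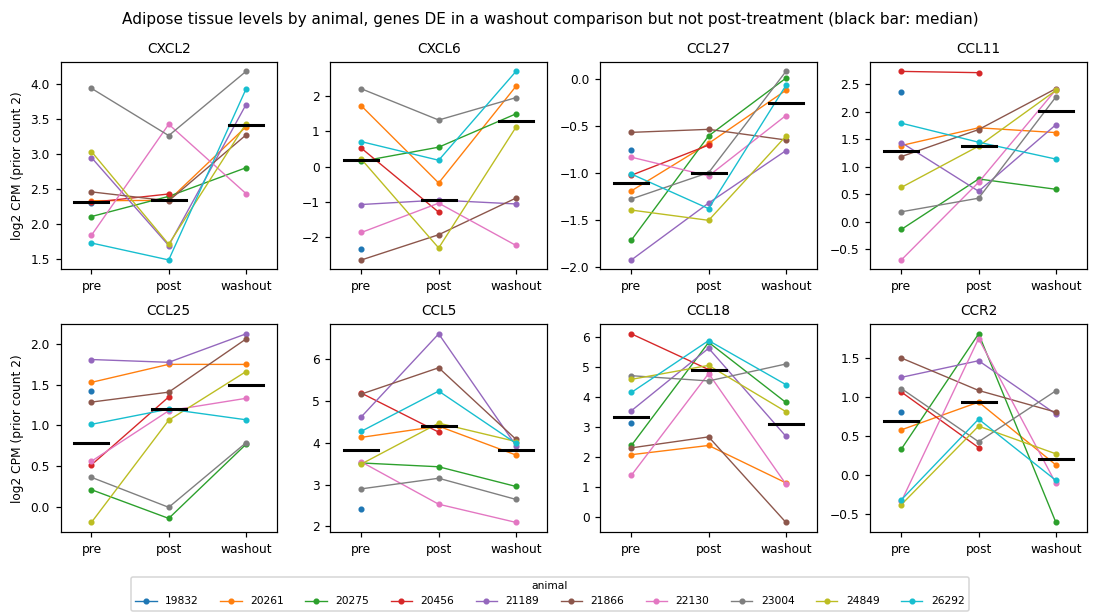
Level in AT (log2 CPM, prior count 2) of 8 members DE in a comparison with washout but not post-treatment, 1 panel per gene, with 1 line per animal and a black bar at the median. CXCL2 and CXCL6 had washout medians of 10.6 and 2.38 CPM above post-treatment medians of 4.97 and 0.415 CPM, CCL5, CCL18 and CCR2 moved down, and CCL25 was higher at washout than before treatment in 8 of 8 animals.

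The remaining named members were not DE between the end of treatment and washout. CX3CR1 had a log2 change of 0.77 (SE 0.31, adjusted p = 0.0555, 7 of 8 animals higher), CCR7 0.56 (SE 0.26, adjusted p = 0.0952) and its ligand CCL19, which guides T cells and dendritic cells, 0.62 (SE 0.31, adjusted p = 0.124). CXCL14 was at 0.35 (SE 0.15, adjusted p = 0.0702), CXCR3 at -0.59 (SE 0.37, adjusted p = 0.225), CXCL10 at -0.27 (SE 0.46, adjusted p = 0.669) and ACKR3 at -0.29 (SE 0.14, adjusted p = 0.113). All 11 macrophage markers were DE and lower at washout, with a median log2 change of -1.79. Within animals the median change of the macrophage markers was negative in 7 of 8 and 0.28 in animal 23004, the animal in which CCL15, CCL18, CCR1, CCR2 and CXCR4 were highest relative to post-treatment. T cell markers had 2 of 7 DE, both lower, and erythroid genes had 3 of 3 tested DE, all higher (2 others were at 0 in all AT libraries), with summed levels of 454 to 7640 CPM post-treatment and 457 to 12000 CPM at washout. B cell and endothelial markers had 1 DE each, both higher, and NK cell, dendritic cell and skeletal muscle markers had 0. Markers of progenitors and fibroblasts had 6 of 7 below 0 and 2 DE, both lower, adipocyte markers had 1 of 5 DE, higher, and immediate early genes had 2 of 10 DE, both lower. The part of these markers was not tested.

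Members that lie near each other in the genome did not all move alike. In the RefSeq gene order, CCL5, CCL16, CCL15, CCL23 and CCL18 form a run with at most 2 other coding genes between neighbours, in which CCL5, CCL15 and CCL18 fell from the end of treatment to washout, CCL23 rose and CCL16 was not tested. In the run of CCL2, CCL7, CCL11, CCL8, CCL13 and CCL1, CCL11 rose and the 4 others tested were not DE.

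CCL5, CCL15, CCL18, CCL27, CXCL1, CXCL2, CXCL6 and CXCL12 were DE between the end of treatment and washout in all 10 fits that left out 1 animal. CCL24 was not DE without animal 20275, CCR1 without 21189 or 22130, and CXCR4 without 20275, 21189 or 26292. CCL11 was DE in 5 of the 10 fits, CCL23 in 4 and CCR2 in 3, with adjusted p up to 0.143. Animals 19832 and 20456 had no AT washout library, so the fits without them dropped no pair of this comparison and could hardly end a call. Of the animals, 3 had both libraries in the last identifier series. Among them CXCL1, CXCL2 and CCL23 were higher at washout in 3 of 3, and CXCL12, CXCR4, CCL5, CCL15, CCL18, CCR1 and CCR2 in 0 of 3. CXCL6, CCL11 and CCL27 were higher in 2 of 3 and CCL24 in 1 of 3. With the series as a covariate over all animals, 12 of the 14 remained DE, while CXCR4 (-0.67, adjusted p = 0.0999) and CCR2 (-0.66, adjusted p = 0.109) did not.

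At washout, 4 members were DE relative to pre-treatment in AT, all ligands and all higher: CCL11, CCL25, CCL27 and CXCL2. They were 8.51% of members, against 20.5% of all genes tested (12.5% higher and 7.96% lower). CCL25, a ligand of CCR9 known from thymus and gut, ranged from 0.774 to 3.4 CPM (median 1.64) before treatment, from 0.804 to 3.32 CPM (median 2.2) post-treatment and from 1.6 to 4.26 CPM (median 2.74) at washout. The lowest washout library lay near the pre-treatment median and 2 of 8 exceeded all pre-treatment libraries. Its log2 fold change was 0.65 (SE 0.18, 1.57-fold, adjusted p = 0.0146), with 8 of 8 animals higher. CCL27 had a log2 change of 1.09 (SE 0.24, 2.13-fold, adjusted p = 0.00274), with 5 of 8 washout libraries above all pre-treatment ones and 7 of 8 animals higher. CCL11 had a log2 change of 1.06 (SE 0.30, 2.09-fold, adjusted p = 0.0148, 7 of 8 animals) and CXCL2 0.88 (SE 0.28, 1.84-fold, adjusted p = 0.0313, 8 of 8 animals).

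CCL13 was lower than before treatment in 8 of 8 animals, with a log2 change of -0.84 (SE 0.32, adjusted p = 0.0662), and CXCR2 was likewise lower in 8 of 8 with -0.33 (SE 0.17, adjusted p = 0.168). Neither was DE. CXCL1 had a log2 change of 0.34 (SE 0.32, adjusted p = 0.486), CXCL12 of -0.06 (SE 0.15, adjusted p = 0.827) and CXCR4 of 0.01 (SE 0.27, adjusted p = 0.976). None of the 19 receptors was DE, and the median over the 47 members was 0.11, against -0.02 for all genes. With the identifier series as a covariate, CCL11, CCL25, CCL27 and CXCL2 remained DE. The atypical receptor ACKR1 was then also DE and higher (0.56, adjusted p = 0.0313), and CCL13 was DE and lower (-0.98, adjusted p = 0.0348). CCL27 was DE in all 10 fits that left out 1 animal, of which those without 19832 or 20456 again dropped no pair. CCL11 was not DE without animal 23004, CCL25 without 21866, and CXCL2 without 20261, 21189, 21866 or 26292. The count was 2 without 21866 and 2 to 6 over the 10 fits. It was 12 when only the 2 time points compared were fitted, 9 higher and 3 lower, and the share of all genes in that fit was not kept. Of the 11 macrophage markers, 6 were DE and lower, and their part was not tested.

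Other genes of the pathway were taken from lists of downstream signaling and of proteins that handle chemokines. Of 9 genes that cleave, bind or present chemokines, 9 had fold changes above 0 post-treatment and 4 were DE: DPP4, a protease that trims CXCL12 and other chemokines (log2 fold change 0.81, SE 0.20, adjusted p = 0.0150), cathepsin S (CTSS, 1.05, SE 0.35, adjusted p = 0.0457), the matrix protease MMP2 (0.40, SE 0.13, adjusted p = 0.0410) and the heparan sulfate carrier SDC1 (0.97, SE 0.25, adjusted p = 0.0180). The list median was 0.40, against 0.03 for all genes. At washout 9 of 9 were below 0 relative to post-treatment and 6 were DE, with a median of -0.75. Mean DPP4 levels were 59.1, 105 and 60.6 CPM at the 3 time points.

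Of 23 G protein subunits and effectors below the receptors, 18 were above 0 and 1 was DE post-treatment (ELMO1, 0.38, SE 0.12, adjusted p = 0.0424), and 13 were DE and lower from the end of treatment to washout, among them the leukocyte genes RAC2 (-1.71, SE 0.47), PIK3CG (-1.52, SE 0.34) and VAV1 (-1.15, SE 0.32). Of 14 kinases and their targets, 2 were DE and lower post-treatment, AKT1 (-0.33) and STAT3 (-0.40), and 5 were DE and lower at washout relative to post-treatment. Of 11 genes of receptor desensitization, RGS10, a regulator of G protein signaling, rose post-treatment (0.78, SE 0.24, adjusted p = 0.0334) and was DE and lower at washout, and CAV1 fell by 0.43. Of 12 NF-kB genes, which induce inflammatory chemokines, NFKB1 was DE post-treatment (0.30, SE 0.07, adjusted p = 0.0108). From the end of treatment to washout 2 of these 12 were higher (IKBKB, IKBKG) and 2 were lower (REL, NFKBIA).

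In SM, 0 of 28 members were DE by edgeR in any of the 3 comparisons, against 0.0% of all 12617 genes post-treatment, 0.19% from the end of treatment to washout and 0.0634% at washout relative to pre-treatment. DESeq2 and voom also called 0 members. At an unadjusted p below 0.05 there were 2, 3 and 2 of the 28 members, against 3.25%, 17.3% and 13.4% of all genes tested. CXCR2 had the lowest unadjusted p of the members in the first and second of these comparisons, with libraries at 0 to 0.852 CPM (median 0.261) before treatment, 0 to 0.209 CPM (median 0.0481) post-treatment and 0 to 1.14 CPM (median 0.423) at washout. These levels are 0 to 20 counts, and the groups overlapped. The log2 fold change from the end of treatment to washout was 2.68 (SE 0.76, adjusted p = 0.120), with 6 of 7 animals higher. With the identifier series as a covariate, CXCL9, CXCL11, CCL19 and CCL25 were DE and lower in SM from the end of treatment to washout, and CCL19 was DE and lower at washout relative to pre-treatment. Most SM post-treatment libraries were in the first series and most SM washout libraries in the last. Only animals 21189 and 24849 had their SM post-treatment and washout libraries in the same series. This fit therefore separates series from time only weakly. CXCL12 in SM had medians of 151, 132 and 120 CPM, ACKR3 91.0, 81.7 and 106 CPM, and CX3CR1 16.3, 14.2 and 13.4 CPM, with ranges that overlapped throughout. None of the pathway or marker genes was DE in SM either.

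Before treatment, 35 of 45 members tested were DE between AT and SM, 33 higher in AT and 2 higher in SM. This was 77.8% of members, against 77.7% of all 13463 genes tested, of which 42.1% were higher in AT and 35.5% higher in SM. Here the CPM values were scaled over both tissues together. The median log2 change of members was 2.28 in favour of AT, also with CCL7 at its lower bound, against 0.16 for all genes. CCR1 had a mean of 71.9 CPM in AT and 0.872 CPM in SM, with a log2 change of 6.43 (adjusted p = 2.99e-09). CXCL1 was at 5.81 and 0.120 CPM (5.35, adjusted p = 1.51e-08) and CXCR2 at 5.24 and 0.393 CPM (3.69, adjusted p = 4.51e-10). CCL2 averaged 27.6 ± 17.7 CPM (SD, n = 10) in AT and 1.71 ± 0.968 CPM (SD, n = 6) in SM, a log2 change of 4.11 (adjusted p = 7.55e-08 by edgeR). CCL7 had 0 counts in every SM library before treatment and 0.216 ± 0.197 CPM in AT, at least 5.64-fold higher when 3 counts over the SM group are taken as the limit. Macrophage markers summed to medians of 1430 CPM in AT and 83.9 CPM in SM before treatment, each scaled within its tissue, and their part in the difference was not tested.

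For the CXCL12 axis the difference between tissues depended on the scaling. CXCL12 averaged 232 ± 72.3 CPM in AT and 207 ± 64.5 CPM in SM, a log2 change of 0.16 (SE 0.21, adjusted p = 0.486), but with library size in place of the joint TMM it was DE and higher in AT (0.90, SE 0.25, adjusted p = 0.00147). ACKR3 was at 211 and 143 CPM (0.61, SE 0.28, adjusted p = 0.0460) and CXCR4 at 19.0 and 8.35 CPM (1.15, adjusted p = 0.00177). CXCL14 was higher in AT at 194 against 55.3 CPM (1.67, adjusted p = 3.54e-05). The 2 genes higher in SM were CX3CR1, at 2.11 ± 0.902 CPM in AT and 21.9 ± 11.6 CPM in SM (log2 fold change -3.27, SE 0.37, adjusted p = 7.00e-10), and CCL27, at 0.279 and 1.35 CPM (-2.24, SE 0.35, adjusted p = 5.32e-07). With library size in place of the joint TMM, log2 fold changes moved up, with a difference of 0.75 between the mean log2 TMM factors of the tissues. Some members moved less, such as CXCL6 (5.61 to 6.06). CX3CR1 and CCL27 then remained higher in SM, and 38 members were higher in AT.

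**Figure D5:**
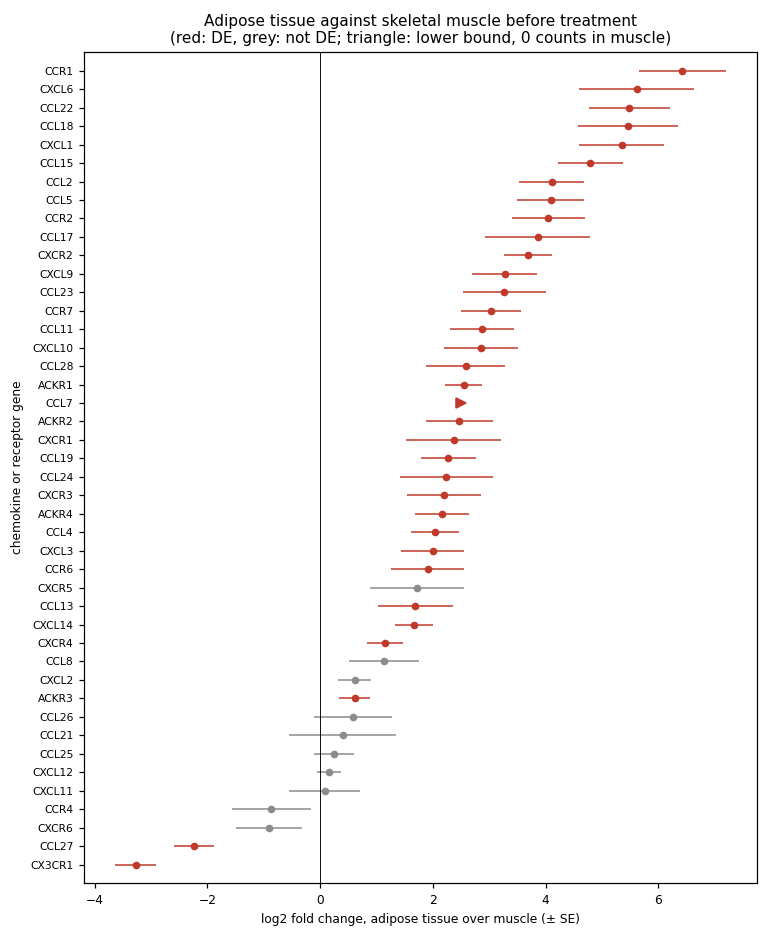
Log2 fold change of AT over SM before treatment (x axis, with its standard error as a bar) for 44 of the 45 members tested, 1 gene per line and ordered by value, with DE genes in red, other genes in grey and a triangle for the lower bound of CCL7, which had 0 counts in SM. CCR1 lies at the top at 6.43, CXCL12 near 0 at 0.16 (0.90 with library size in place of TMM), and CCL27 and CX3CR1 at the bottom at -2.24 and -3.27.

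The difference between tissues in each change over time was tested for the 28 members that passed the filter in both. For post-treatment minus pre-treatment, 0 of 28 differed by edgeR, voom or DESeq2, against 0.0487% of all 12322 genes by edgeR. At an unadjusted p below 0.05 there were 4 of the 28 members, against 10.6% of all genes. For washout minus post-treatment, 3 of 28 differed (10.7%, against 22.7% of all genes): CXCL2, CXCR2 and CCL25. For washout minus pre-treatment, 4 of 28 differed (14.3%, against 17.5%): CCL19, CCL25, CCL27 and CXCL2. CXCL2 rose in AT, with 8 of 8 animals higher at washout than before treatment, and was lower in SM in 6 of 6 (medians of 2.46, 1.91 and 1.37 CPM), so that the changes differed by 1.47 (SE 0.41, adjusted p = 0.0115). CCL19 was higher in AT in 7 of 8 animals and in SM in 1 of 6, a difference of 2.56 (SE 0.79, adjusted p = 0.0210), with SM levels of 0 to 1.35 CPM. CCL25 was higher in AT in 8 of 8 and in SM in 0 of 6, a difference of 1.59 (SE 0.53, adjusted p = 0.0356). CCL27 was higher in 7 of 8 and in 2 of 6, a difference of 1.51 (SE 0.50, adjusted p = 0.0337).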

How the data were processed

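Punch biopsies were sequenced from stranded TruSeq mRNA libraries and aligned by the authors with STAR to the MacaM macaque genome. FastQC, SAMtools, edgeR and limma are also named in the submitters' processing notes, and the counting tool, its version and its strand setting are not given in the sources used here. The deposited values were raw counts per gene, whole numbers that had not been normalized. Of 16103 entries, 70 repeats with identical counts were dropped. Of 51 labelled samples, 48 had counts, and 3 SM samples (pre-treatment of 20456 and 21866, washout of 21866) were not analysed here.

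From these counts, edgeR 4.0.16 in R 4.3.3 fitted a robust quasi-likelihood model per tissue with time point and animal as terms and TMM scaling. Tests were two-sided and Benjamini-Hochberg adjusted over 13367 genes in AT and 12617 in SM. Levels are CPM, and log2 CPM used a prior count of 2. A joint model with tissue and time point gave the comparisons between tissues. Scripts were tested on simulated data. Alternatives were DESeq2 1.42.0, limma 3.58.1 voomWithQualityWeights, other scaling, filters and model terms, and each animal left out. Same-numbered libraries are from the same animal, and their deviations from the group means correlated with a median r of 0.35 over 25 pairs in AT (-0.04 over 217 other pairs) and 0.28 over 19 pairs in SM (-0.05 over 127). No 2 libraries were identical.

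The members, roles, pathway lists and marker lists were chosen with earlier results of these data known. Values per library were given for members DE in an AT comparison (at most the 8 with the smallest adjusted p), members DE in SM or between tissues, and well-known members whatever their result, 23 in all. Of the 56 symbols, 53 were found in RefSeq (T2T-MMU8v2.0), and CCL4 by a synonym. No sequence was used. One member is counted in the totals and is not reported here by name.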

Additional observations from a re-analysis of the deposited data

Results flagged for a closer look

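Single libraries stood apart from their group in 3 of 117 groups of named members, where a gap of this size arises by chance in about 1 in 20 groups. CX3CR1 in AT post-treatment was highest in animal 20261, at 8.8 CPM against a group median of 1.35 CPM. CXCR2 in AT at washout was lowest in animal 21189, at 2.53 CPM against 4.81 CPM. In SM at washout, CXCR4 was lowest in animal 19832 at 2.48 CPM (median 5.23).

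The change over time differed between AT and SM, by edgeR's test of the difference itself, in 7 cases. For washout minus post-treatment, the AT change minus the SM change was 1.33 for CXCL2 (adjusted p = 0.0189), -2.56 for CXCR2 (adjusted p = 0.00678) and 1.56 for CCL25 (adjusted p = 0.0274). For washout minus pre-treatment it was 1.47 for CXCL2 (adjusted p = 0.0115), 2.56 for CCL19 (adjusted p = 0.0210), 1.59 for CCL25 (adjusted p = 0.0356) and 1.51 for CCL27 (adjusted p = 0.0337). In SM, CXCR2 had 0 to 20 counts per library.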

How the results depend on the processing

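The number of DE members post-treatment in AT was 8, and it was 4 with voom, 3 with only the 2 time points compared, 1 without the pre-treatment library of animal 20275, and 1 to 8 over the fits that left out 1 animal. DESeq2 called 8, of which 7 were shared. From the end of treatment to washout it was 14, and 8 with only the 2 time points compared. At washout relative to pre-treatment it was 4, with 7 by voom, 12 with only the 2 time points compared and 2 to 6 over the fits that left out 1 animal. The animal was a block in the main model. Without this replicate block the 3 AT counts were 2, 8 and 3, 1 SM member was DE from the end of treatment to washout, and 2 members differed between tissues in washout minus pre-treatment against 4 with it. Series and time point are poorly separated in SM, where most post-treatment libraries are in the first series and most washout libraries in the last. With the identifier series as a covariate, 4 SM members were DE and lower from the end of treatment to washout (CXCL9, CXCL11, CCL19 and CCL25), 1 was lower at washout relative to pre-treatment (CCL19), and 5 differed between tissues in washout minus post-treatment, where DESeq2 gave 6 against 3. The cause of these differences was not tested. The share of all genes DE was kept for the main model only, so whether genes in general moved likewise cannot be told. The mean log2 TMM factors of the time points compared differed by 0.03, 0.08 and 0.10 in the 3 AT comparisons and by 0.07, -0.17 and -0.09 in SM. Shifts of single genes under library-size scaling can differ from these means. For the named members, 152 values kept their side of the threshold, 42 no longer passed it and 0 changed sign. This tally leaves out values that newly passed. An example is CCL13 in AT at washout relative to pre-treatment with the series as a covariate (-0.98, adjusted p = 0.0348). The earlier quasi-likelihood method of edgeR, added after seeing the data, called 7, 13 and 4 members in AT. Low counts, as for CCL24 in AT (0 to 38 per library), CCL27 in AT (3 to 18) and CXCR2 in SM (0 to 20), limit the precision of those values.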

Other observations

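Chemokine genes outside the name rule were tested in AT for 5 genes. The platelet chemokines PF4, PF4V1 and PPBP rose from the end of treatment to washout by 2.18 (SE 0.49, adjusted p = 0.00220, 8 of 8 animals), 2.34 (SE 0.54, adjusted p = 0.00162, 7 of 8) and 2.28 (SE 0.53, adjusted p = 0.00290, 7 of 8) on the log2 scale. Mean PPBP levels were 5.64 ± 7.61 CPM (n = 10) before treatment, 2.36 ± 3.0 CPM (n = 9) post-treatment and 11.4 ± 12.1 CPM (n = 8) at washout. Erythroid genes, a sign of blood in a biopsy, had 3 of 3 DE and higher in the same comparison, and their part was not tested. CCRL2, which binds chemerin and does not signal through G proteins, rose post-treatment by 0.91 (SE 0.25, adjusted p = 0.0220, 8 of 9 animals), with means of 3.41 ± 1.79, 6.32 ± 2.48 and 4.44 ± 1.19 CPM. CCL3L3, which has near-identical copies, fell by 1.24 (SE 0.44, adjusted p = 0.0340) from the end of treatment to washout.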
